A study of Mus musculus with 12 samples.

Results

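The 10 genes described here belong to the Wnt/beta-catenin pathway and were followed through RNA sequencing of 3 mouse lines known as melanocytic. They are beta-catenin itself (Ctnnb1), the TCF/LEF DNA-binding factors that it joins in the nucleus (Lef1, Tcf7, Tcf7l1, Tcf7l2), and genes that restrain the pathway (Axin2, Apc, Nkd1, Rnf43, Znrf3). Members were the rows of the deposited count table that carry these gene names, 10 of 34513 genes, and each name had 1 row. The lines were labelled Melan-A, B16F0 and B16F10. Melan-A is known as an immortal non-tumorigenic melanocyte line, and B16F0 and B16F10 as melanoma lines. Of the B16 lines, B16F10 is known as the more metastatic. Cultures of each line were sequenced with no treatment (control) or after SX-682, an inhibitor of the chemokine receptors CXCR1 and CXCR2, which makes 6 groups of 2 libraries. The labels state no dose or duration of the SX-682 exposure, nor whether the libraries of a group came from separate cultures, so p-values measure the spread between libraries, which may be technical. Each line is a single established line, and differences between lines are differences between these cultures.

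In the absence of a Wnt signal, a cytoplasmic complex built on Axin and Apc marks beta-catenin for breakdown. When Wnt proteins bind Frizzled and Lrp receptors the complex is held off, beta-catenin accumulates in the nucleus, and TCF/LEF factors that otherwise repress their targets activate them. Several of these targets, Axin2, Nkd1, Rnf43 and Znrf3 among them, feed back on the pathway, and in the melanocyte lineage the pathway is best known for driving Mitf. Beta-catenin is controlled mainly as a protein, and only RNA is described here.

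Library totals were 48876982 to 85322092 counts. Among all genes, 18338 passed the expression filter and were tested, among them all 10 members. Levels are given as CPM, the counts of a gene scaled to a common TMM-adjusted library total, and as CPM per kb of gene length only where genes are set beside each other. All 8 melanocyte lineage markers were over 3 counts in every group, but their summed level was 1351 to 1381 CPM in the Melan-A controls against 19270 to 19367 CPM in the B16F0 controls and 25120 to 25150 CPM in the B16F10 controls. Tyr, the tyrosinase gene, had 69 to 77 counts in the Melan-A controls. Summed fibroblast markers went the other way, at 216 to 218 CPM with 7 of 7 over the floor in the Melan-A controls, 27.2 to 28.6 CPM with 5 of 7 in B16F0 and 9.77 to 10.7 CPM with 4 of 7 in B16F10. Not every marker went with its sum. Of the 8 melanocyte markers 7 were higher and 1 lower than Melan-A in each B16 line (edgeR, adjusted p under 0.05). Of the 7 fibroblast markers 2 were higher and 5 lower in B16F0, and 1 higher and 6 lower in B16F10. Of all genes tested 35.3% were higher and 40.6% lower in B16F0, and 33.4% and 40.8% in B16F10. In bulk RNA, fewer cells that express a gene and less RNA per cell cannot be told apart. The part of these marker differences in the line comparisons was not tested. Line names are those of the labels, and with these marker levels the melanocyte identity of the Melan-A cultures was not tested. SX-682 moved summed melanocyte markers to 16209 to 16413 CPM in B16F0 and 15248 to 15499 CPM in B16F10, with 1353 to 1361 CPM in Melan-A. The near-level sum in Melan-A held changes both ways, with 2 of the 8 markers called higher and 5 lower. All 8 were called lower in each B16 line. Of all genes tested 23.4% were higher and 24.7% lower in Melan-A, and 25% and 25.3% were lower in B16F0 and B16F10. In Melan-A, summed leukocyte markers went with SX-682 from 16.2 to 16.4 CPM (3 of 4 over the floor) to 44.1 to 45.4 CPM (3 of 4), nearly all of it Cd68, with Ptprc at 22 counts or fewer and Cd3e at 0 or 1. Summed keratinocyte markers there went from 5.42 to 5.93 CPM (4 of 6 over the floor, Krt1 and Epcam at 0) to 3.31 to 3.48 CPM (5 of 6). The part of these shifts in the SX-682 changes was not tested.

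The 4 TCF/LEF factors bind the same DNA letters through a shared HMG box, and their transcripts are related enough that their reads might be confused. The stretches below show why they were separable. Each is 120 bases of coding sequence from the end of the HMG box, read from the GENCODE M21 transcripts of the mouse genome build GRCm38, with capitals at the positions where the 4 are not all equal.
Lef1: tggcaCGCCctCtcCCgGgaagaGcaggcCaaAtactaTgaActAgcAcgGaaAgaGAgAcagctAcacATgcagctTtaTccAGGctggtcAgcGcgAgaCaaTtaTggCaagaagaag
Tcf7: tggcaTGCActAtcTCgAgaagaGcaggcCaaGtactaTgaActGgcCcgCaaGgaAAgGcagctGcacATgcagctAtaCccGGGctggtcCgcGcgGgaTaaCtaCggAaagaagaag
Tcf7l1: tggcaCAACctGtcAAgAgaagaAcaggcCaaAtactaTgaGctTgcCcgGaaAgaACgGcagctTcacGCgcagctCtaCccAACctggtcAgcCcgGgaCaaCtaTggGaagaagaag
Tcf7l2: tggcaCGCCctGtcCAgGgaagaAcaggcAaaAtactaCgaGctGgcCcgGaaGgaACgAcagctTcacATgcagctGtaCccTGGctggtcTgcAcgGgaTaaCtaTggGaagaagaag
Of the 120 positions 85 (70.8%) were equal in all 4, and pairs were equal at 94 (Tcf7 and Tcf7l1) to 102 positions (Tcf7l1 and Tcf7l2). The longest run shared by all 4 was 9 bases, and no stretch of 50 bases was shared by the transcripts of any pair of members. Overlap with genes on the opposite strand was larger for some members, and whether strand was used in counting is not given in the sources used here. The exons of Ulk4 lie opposite 14.6% of the exonic bases of Ctnnb1, and Ulk4 had 216 to 955 counts in a library against at least 37412 for Ctnnb1. Opposite Lef1 (13.7%), Tcf7l1 (4.56%) and Axin2 (3.80%) the annotation has Gm43352, Gm15401 and Gm11670, of which the latter 2 had 0 to 5 counts and Gm43352 was not analysed here.

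Beta-catenin RNA was the most abundant of the 10 in every group per length. Ctnnb1 was at 933 and 939 CPM in the Melan-A controls, 995 and 988 CPM in the B16F0 controls, and 997 and 1001 CPM in the B16F10 controls. The untreated lines thus lay within a narrow band, and the B16 lines were higher than Melan-A by 0.08 and 0.09 on the log2 scale with TMM scaling, a direction that turned to -0.01 (adjusted p = 0.645) and -0.09 (adjusted p = 4.39e-05) when library totals alone were used. With at least 10 counts required in every library the B16F10 value was 0.03 (adjusted p = 0.168). The treated libraries read 810 and 802 CPM for Melan-A, 773 and 777 CPM for B16F0, and 702 and 705 CPM for B16F10. Every SX-682 library was below every control of its own line. Ctnnb1 fell by 0.22 (SE 0.019) in Melan-A, by 0.36 (SE 0.019) in B16F0 and by 0.51 (SE 0.019) in B16F10 on the log2 scale, which is 0.861, 0.782 and 0.704 times the control level (edgeR quasi-likelihood test, adjusted p = 5.04e-11, 7.92e-16 and 1.5e-19). The fall was deeper in the mean of the B16 lines than in Melan-A, with a difference of -0.21 (95% interval -0.26 to -0.17, adjusted p = 9.05e-09), and deeper in B16F10 than in B16F0, with a difference of -0.15 (interval -0.21 to -0.10, adjusted p = 5.39e-05). Among 10906 other well-expressed genes, the 3 whose 6 group means followed those of Ctnnb1 most closely were Ormdl1, Slc39a9 and Twf2, with root mean square differences of 0.040 to 0.042 log2 units.

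**Figure D1:**
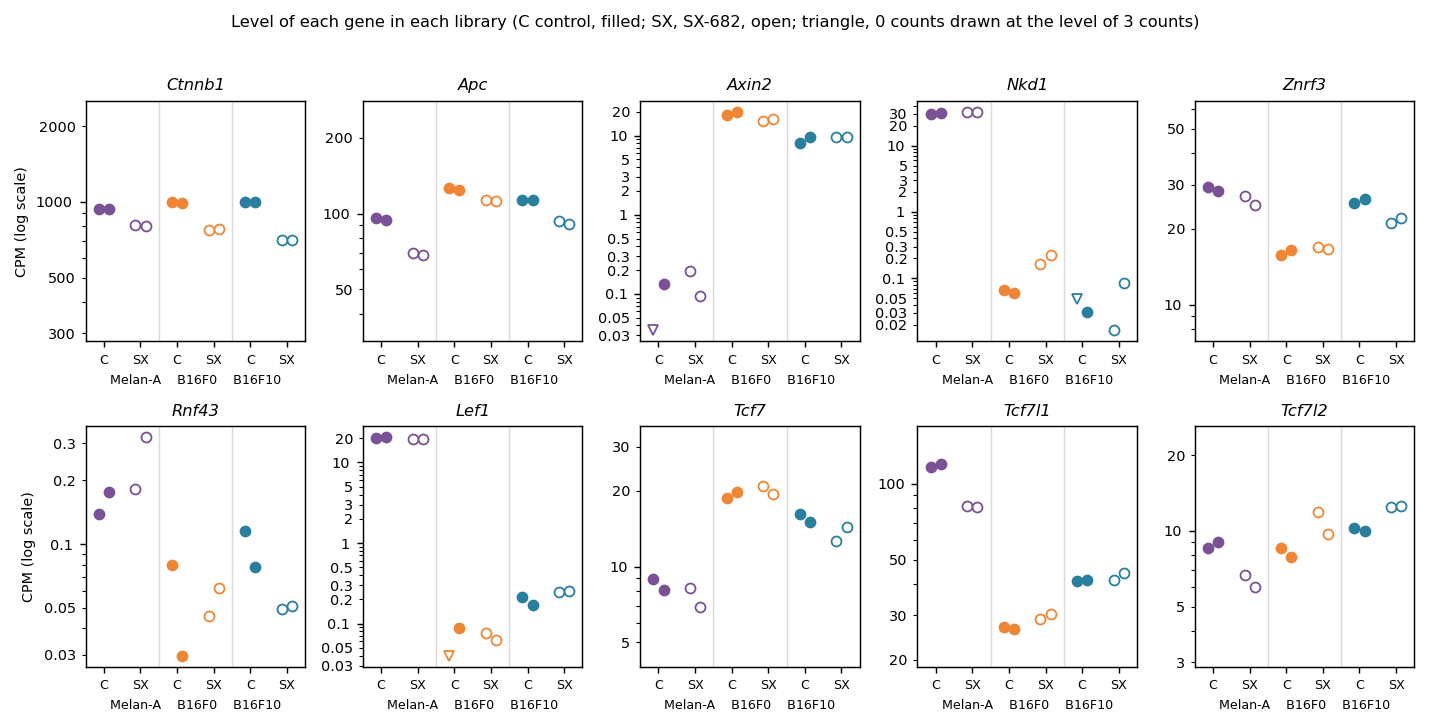
CPM of each of the 10 genes in each of the 12 libraries on log axes that differ between panels, with control libraries filled, SX-682 libraries open, and a triangle at the level of 3 counts where a library had 0. Ctnnb1 sits between 702 and 1001 CPM everywhere, whereas Lef1 and Nkd1 are high only in the Melan-A libraries and Axin2 only in the B16 libraries.

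The first comparison asked how the untreated lines differ. Against Melan-A, 8 of the 10 members differed in B16F0, 4 higher and 4 lower, where 75.9% of all genes tested differed (35.3% higher and 40.6% lower). The same 8 differed in the same directions in B16F10, where 74.2% of all genes tested differed (33.4% higher and 40.8% lower). The higher members were Ctnnb1 (with TMM scaling), Tcf7, Axin2 and Apc, the lower ones were Lef1, Tcf7l1, Nkd1 and Znrf3, and the count is close to the background share in both. Among all genes called in B16F10 against Melan-A, 45.0% were higher with TMM scaling and 34.3% with library totals alone, which lowered the median of all genes by 0.19 on the log2 scale. B16F10 differed from B16F0 in 7 members, 4 higher and 3 lower, against 62% of all genes tested (30.8% higher and 31.2% lower). The members' median difference was -0.47 (all genes tested -0.06) for B16F0 against Melan-A, -0.03 (all genes -0.10) for B16F10 against Melan-A and 0.16 (all genes -0.002) for B16F10 against B16F0.

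Lef1, usually described as an activator with beta-catenin, was a Melan-A transcript in these data. It had 1753 and 1861 counts in the Melan-A controls (20.3 and 20.5 CPM), 0 and 6 counts in the B16F0 controls, and 13 and 11 counts in the B16F10 controls. The line groups did not overlap by a wide margin, since the highest B16 control was at 0.215 CPM. From summed counts, the Melan-A level was 483 times that of B16F0 (95% counting interval 222 to 1318) and 106 times that of B16F10 (70.9 to 165). The B16F0 value depended on 1 library, being 229 (104.9 to 623) without replicate 1 of the B16F0 control and at least 509 without replicate 2, against the floor of 3 counts. B16F10 was also called higher than B16F0 (log2 difference 2.14, edgeR adjusted p = 0.00349), on 24 against 6 counts in all, but without replicate 1 of the B16F0 control, the library with 0 counts, the difference was 1.10 with adjusted p = 0.11. SX-682 left Lef1 at 1386 and 1457 counts in Melan-A, 19.4 CPM in both, and its change there was -0.07 (interval -0.26 to 0.12, adjusted p = 0.584). In the B16 lines treated libraries had 3 to 15 counts, and no change was detectable at this depth.

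Tcf7l1, which acts mainly as a repressor, and Tcf7, which has activating and short inhibitory forms, were shifted in opposite directions between the lines. Tcf7l1 stood at 117 and 120 CPM in the Melan-A controls, 27.1 and 26.5 CPM in B16F0, and 41.2 and 41.4 CPM in B16F10. It was thus highest in Melan-A and lowest in B16F0, with no overlap between lines, and the log2 differences from Melan-A were -2.14 (SE 0.041, adjusted p = 5.81e-28) and -1.52 (SE 0.039, adjusted p = 1.53e-24). Tcf7 stood at 8.97 and 8.10 CPM in the Melan-A controls, 18.7 and 19.8 CPM in B16F0 and 16.3 and 15.05 CPM in B16F10. Here the B16 lines were the higher ones, by 1.17 (SE 0.084, adjusted p = 1.65e-13) and 0.87 (SE 0.086, adjusted p = 2.43e-10), and B16F10 was below B16F0, with a difference of -0.30 (interval -0.47 to -0.13, adjusted p = 0.00212). Tcf7l2, the factor best known from the gut, differed little, at 8.56 and 9.08 CPM in Melan-A, 8.57 and 7.87 CPM in B16F0, and 10.3 and 9.996 CPM in B16F10. It was called only between the B16 lines, B16F10 being higher by 0.30 (interval 0.10 to 0.50, adjusted p = 0.00783), a call lost without replicate 2 of the B16F0 control (adjusted p = 0.0809). The difference of B16F10 from Melan-A (0.20, adjusted p = 0.0565) passed the threshold when either B16F0 SX-682 library was left out (adjusted p = 0.0458 and 0.0444).

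Per length, these levels give each line its own mixture of factors. Tcf7l1 made up 83.1% ± 0.611 (SD, n = 2) of the summed TCF/LEF level in the Melan-A controls, with 7.79% ± 0.656 from Tcf7 and 6.39% ± 0.0359 from Lef1. In the B16F0 controls Tcf7l1 held 48.3% ± 1.14 and Tcf7 45.1% ± 1.54. The lengths used for Tcf7 (3019 bases) and Tcf7l2 (8894) exceed their GENCODE M21 exon lengths (2625 and 8775). A shorter Tcf7 length would raise its share, so whether Tcf7l1 or Tcf7 led in B16F0 depends on the length used. The SD does not cover this. In the B16F10 controls the shares were 62.4% ± 1.21 and 30.7% ± 1.17, while Lef1 gave 0.0357% in B16F0 and 0.130% in B16F10. Melan-A was therefore a Tcf7l1 line with a visible Lef1 share, and the B16 lines mixtures of Tcf7l1 and Tcf7. The summed level was also higher in Melan-A, at 36.3 ± 0.433 CPM per kb (SD, n = 2) against 14.1 ± 0.115 in B16F0 and 16.9 ± 0.277 in B16F10. SX-682 libraries of Melan-A had a sum of 25.9 and 26.5, below both controls (36.0 and 36.6), those of B16F0 15.3 and 15.6 against 14.1 and 14.2 in the controls, and those of B16F10 16.2 and 17.5 on both sides of the controls (16.7 and 17.1). The sum was not tested.

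**Figure D2:**
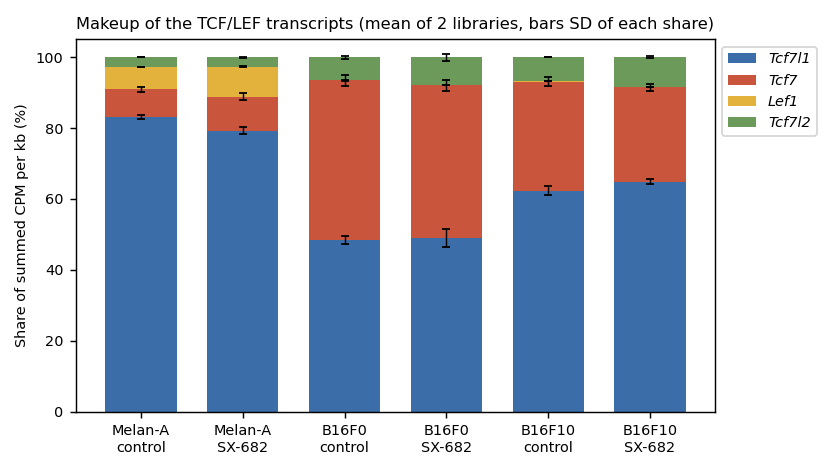
Share of each TCF/LEF factor in the summed CPM per kb of the 4, in percent, for each of the 6 groups, as the mean of 2 libraries with the SD of each share as error bars. Tcf7l1 takes 83.1% in the Melan-A controls and 48.3% in the B16F0 controls, where Tcf7 takes 45.1%. The order of these 2 in B16F0 depends on the gene length used for Tcf7.

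The genes of the destruction complex did not move as a pair. Apc, the large scaffold that helps to hand beta-catenin to its kinases, was at 96.2 and 94.4 CPM in the Melan-A controls, 127 and 125 CPM in B16F0, and 113 CPM in both B16F10 libraries. B16F0 was higher than Melan-A by 0.40 (SE 0.030, adjusted p = 3.61e-13) and B16F10 by 0.25 (SE 0.030, adjusted p = 1.34e-08), the latter at 0.06 with adjusted p = 0.0591 on library totals alone. Axin2, the inducible Axin and the most widely used readout of Wnt/beta-catenin signalling, was nearly absent from Melan-A. It had 0 and 12 counts in the Melan-A controls, 1372 and 1338 counts in B16F0 (18.3 and 19.9 CPM), and 486 and 615 counts in B16F10 (8.04 and 9.62 CPM). From summed counts, the level in B16F0 was 282 times (161 to 546) and in B16F10 131 times (74.5 to 254) that in Melan-A. Without replicate 1 of the Melan-A control these were 144 (82.5 to 280) and 67.0 (38.2 to 130), and without replicate 2, which leaves only the library with 0 counts, at least 549 and 255 against the floor. B16F10 was lower than B16F0, with a log2 difference of -1.11 (SE 0.12, adjusted p = 1.73e-09). The genes whose 6 group means were most like those of Axin2 were Lmx1b, Sdk1 and Adssl1, at root mean square differences of 0.416 to 0.429 log2 units. These differences are absolute, and Axin2 ranged far more over the groups than Ctnnb1, so the values for the 2 genes are not comparable.

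Of the feedback genes at or below the membrane, Nkd1 had the pattern of Lef1, not that of Axin2. Nkd1, which binds Dishevelled and dampens the signal, had 2623 and 2845 counts in the Melan-A controls (30.4 and 31.3 CPM), 5 and 4 counts in the B16F0 controls and 0 and 2 counts in the B16F10 controls. The Melan-A level was 487 times that of B16F0 (257 to 1066), and 1919 times that of B16F10 with a counting interval of 531 to 15849 on 2 counts. The latter was 986 (273 to 8144) without replicate 1 of the B16F10 control and at least 622 against the floor without replicate 2. Its paralog Nkd2, named after its values were seen, had 5262 to 5465 counts in the Melan-A controls, 0 counts in all 4 B16F0 libraries and 508 to 550 counts in the B16F10 controls. Znrf3, a ubiquitin ligase that removes Frizzled from the cell surface, was at 29.3 and 28.3 CPM in Melan-A, 15.8 and 16.5 CPM in B16F0 and 25.4 and 26.2 CPM in B16F10. The log2 difference from Melan-A was -0.84 in B16F0 (SE 0.059, adjusted p = 1.14e-13). In B16F10 it was -0.16 (adjusted p = 0.0147), a call lost without replicate 1 of the Melan-A control (adjusted p = 0.0879) or replicate 1 of the B16F10 control (0.0923). Rnf43, the related ligase, had 2 to 24 counts in all 12 libraries, and no comparison of it passed the test. Its highest level was 0.320 CPM. The summed control counts gave a ratio of B16F0 to Melan-A of 0.356 (counting interval 0.140 to 0.802, edgeR adjusted p = 0.0845) on 8 against 28 counts.

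The promoters of the 3 members that were nearly absent from a line are shown because their transcripts switched between lines in opposite directions. Each run is the 250 bases before a RefSeq transcript start on the plus strand of GRCm38.p6, none of them in an annotated exon, with capitals marking a TCF match. The Axin2 start is that of the gene, at chr11:108920099-108920348, while the Lef1 run at chr3:131156044-131156293 and the Nkd1 run at chr8:88527383-88527632 lie before later starts inside those genes. Lef1 has 3 other windows, the one at its first start among them, and none of these held a match. The run with the match is the one shown.
Axin2: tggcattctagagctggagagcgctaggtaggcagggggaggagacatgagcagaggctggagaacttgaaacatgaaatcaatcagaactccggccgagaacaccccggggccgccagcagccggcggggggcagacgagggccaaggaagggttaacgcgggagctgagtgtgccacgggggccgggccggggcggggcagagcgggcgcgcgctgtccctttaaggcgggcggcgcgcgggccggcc
Lef1: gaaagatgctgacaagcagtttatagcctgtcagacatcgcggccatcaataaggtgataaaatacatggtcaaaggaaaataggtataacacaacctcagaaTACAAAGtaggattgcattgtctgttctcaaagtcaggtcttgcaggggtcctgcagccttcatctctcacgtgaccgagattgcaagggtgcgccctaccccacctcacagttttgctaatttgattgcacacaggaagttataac
Nkd1: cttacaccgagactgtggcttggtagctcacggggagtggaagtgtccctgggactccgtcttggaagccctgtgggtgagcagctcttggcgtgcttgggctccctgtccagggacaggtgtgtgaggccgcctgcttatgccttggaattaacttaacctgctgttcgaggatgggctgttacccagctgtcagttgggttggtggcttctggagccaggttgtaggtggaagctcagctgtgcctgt
The TCF letters searched were CTTTGAA and its variant CTTTGAT, together with CTTTGTA and its variant CTTTGTT, on both strands, in windows of 250 bases before to 50 after each start. Of 32851 windows 5544 (16.9%) held at least 1 match. Of the 15 windows found for 8 members, 2 held a match, the Lef1 window above (CTTTGTA on the other strand, its first base 147 before the start) and a Tcf7l2 window at a later start (CTTTGTT, 14 before the start). No window of Apc or Znrf3 was included in this search of the members. Whether either gene has a window with a match was therefore not tested. A match is a description of the letters and not a bound site.

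SX-682 changed 5 of the 10 members in Melan-A, all lower, where 48.2% of all genes tested were called (23.4% higher and 24.7% lower). In B16F0 it changed 6, 3 higher and 3 lower, against 50.1% of all genes (25.1% higher and 25% lower). In B16F10 it changed 5, 1 higher and 4 lower, against 50.8% of all genes (25.5% higher and 25.3% lower). These counts are near the background, and in B16F0 the count was 3 without replicate 2 of SX-682. The members' median changes for Melan-A, B16F0 and B16F10 were -0.16, 0.07 and -0.08, with 0 for all genes tested throughout. Ctnnb1 and Apc were the members called lower in all 3 lines. The change differed among the 3 lines for 6 of the 10 members (F-test, 47.4% of all genes tested), namely Ctnnb1, Tcf7l1, Tcf7l2, Apc, Nkd1 and Znrf3. Between the mean of the B16 lines and Melan-A it differed for 4 (35.8% of all genes, 18.7% higher and 17.1% lower), with Tcf7l1, Tcf7l2 and Apc higher and Ctnnb1 lower in the B16 lines. Between B16F10 and B16F0 it differed for 3 (30.3% of all genes, 15.3% higher and 14.9% lower), Ctnnb1, Apc and Znrf3, each lower in B16F10.

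**Figure D3:**
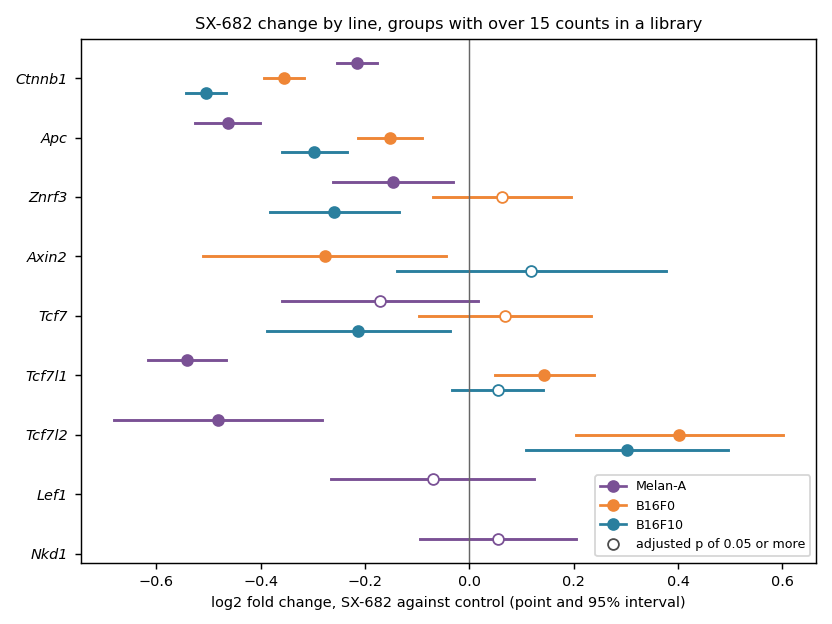
Log2 fold change of SX-682 against control for each gene and line, as points with 95% intervals from edgeR, filled where the adjusted p was under 0.05, for pairs of groups with over 15 counts in a library (Rnf43 is left out). Ctnnb1 and Apc lie below 0 in every line, and Tcf7l2 lies at -0.48 in Melan-A but at 0.40 and 0.30 in the B16 lines.

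Apc fell in each line but not to the same extent. With SX-682 it was at 69.5 and 68.7 CPM in Melan-A, 114 and 113 CPM in B16F0, and 93.1 and 91.3 CPM in B16F10, below both controls of the line in each. The fall was 0.46 (SE 0.031, adjusted p = 1.33e-13) in Melan-A, 0.15 (SE 0.030, adjusted p = 8.81e-05) in B16F0 and 0.30 (SE 0.031, adjusted p = 1.43e-09) in B16F10 on the log2 scale. The order of the lines was thus not that of Ctnnb1, whose smallest fall was in Melan-A. For Apc the change in the B16 lines was 0.24 above that in Melan-A (interval 0.16 to 0.32, adjusted p = 5.87e-06), and the change in B16F10 minus that in B16F0 was -0.15 (interval -0.23 to -0.06, adjusted p = 0.00978).

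Tcf7l1 and Tcf7l2 fell in Melan-A and did not fall in the B16 lines. Tcf7l1 in the SX-682 libraries was at 81.6 and 81.2 CPM in Melan-A, 28.9 and 30.4 CPM in B16F0, and 41.5 and 44.2 CPM in B16F10. The Melan-A fall of 0.54 (SE 0.036, adjusted p = 2e-13) took the line's main factor to 0.687 times its control level. In B16F0 it rose by 0.14 (SE 0.046, adjusted p = 0.00998), a call lost without replicate 2 of the control (adjusted p = 0.0663) or replicate 2 of SX-682 (0.0983), and in B16F10 its change was 0.05 (interval -0.03 to 0.14, adjusted p = 0.31). Tcf7l2 in the SX-682 libraries was at 6.66 and 5.98 CPM in Melan-A, 11.9 and 9.76 CPM in B16F0, and 12.4 and 12.6 CPM in B16F10. It fell by 0.48 (SE 0.097, adjusted p = 0.000119) in Melan-A and rose by 0.40 (SE 0.097, adjusted p = 0.000854) in B16F0 and 0.30 (SE 0.095, adjusted p = 0.00821) in B16F10, with no overlap of treated and control libraries in any line. The B16F0 rise was 0.25 with adjusted p = 0.0917 without replicate 1 of SX-682, and the B16F10 rise 0.28 with adjusted p = 0.0571 without replicate 2 of the control. The change in the B16 lines exceeded that in Melan-A by 0.64 for Tcf7l1 (interval 0.54 to 0.74, adjusted p = 5.33e-12) and by 0.83 for Tcf7l2 (interval 0.59 to 1.08, adjusted p = 1.3e-06).

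Tcf7 changed less. Its SX-682 libraries were at 8.23 and 6.94 CPM in Melan-A, 20.9 and 19.4 CPM in B16F0, and 12.6 and 14.4 CPM in B16F10. Treated and control libraries overlapped in Melan-A and B16F0, and only in B16F10 did they stand apart, with a fall of 0.21 (SE 0.086, adjusted p = 0.039). That call was lost without replicate 1 of the B16F10 control (adjusted p = 0.249) or of SX-682 (0.363), under DESeq2 (0.0607), and with upper quartile scaling (0.0826) or library totals (0.0546). The Melan-A change of -0.17 (adjusted p = 0.131) passed without replicate 1 of SX-682 (-0.30, adjusted p = 0.0291). The change in B16F10 minus that in B16F0 was -0.28 (interval -0.52 to -0.04, adjusted p = 0.0722). It passed with only the lines compared in the fit (-0.30, edgeR adjusted p = 0.019). So it did with at least 10 counts in every library (-0.30, 0.0377), with RLE scaling (-0.30, 0.0493), and without replicate 2 of the B16F10 SX-682 libraries (-0.38).

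The changes of Axin2 were imprecise in the lines that express it. With SX-682 it was at 15.3 and 16.3 CPM in B16F0, below both controls (18.3 and 19.9 CPM), and at 9.70 and 9.49 CPM in B16F10, where the controls were at 8.04 and 9.62 CPM. The B16F0 fall was 0.28 (SE 0.11, adjusted p = 0.0427) and stood near the threshold. The adjusted p was 0.0521 under DESeq2, 0.0567 with RLE scaling, 0.0609 with upper quartile scaling and 0.0523 with the replicate number as a block. It was 0.0642 and 0.245 without replicate 1 and 2 of the B16F0 control, 0.22 and 0.0691 without replicate 1 and 2 of its SX-682 libraries, and 0.0522 and 0.0521 without replicate 1 and 2 of the B16F10 SX-682 libraries. The B16F10 change was 0.12 (interval -0.14 to 0.38, adjusted p = 0.473). In Melan-A the treated libraries had 14 and 7 Axin2 counts against 0 and 12 in the controls, a ratio of 2.12 with a counting interval of 0.995 to 4.72. The B16F10 change lay 0.40 above that of B16F0 (interval 0.05 to 0.74, adjusted p = 0.0796). That difference passed with only the lines compared in the fit (0.38, edgeR adjusted p = 0.00661) and with no expression filter (0.39, adjusted p = 0.0386). It also passed without either Melan-A control library (0.40 each) and without replicate 2 of the B16F10 control (0.53).

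Nkd1 held its level in Melan-A and stayed near the floor elsewhere. Its Melan-A libraries with SX-682 had 2275 and 2415 counts, or 31.9 and 32.2 CPM, a change of 0.05 (interval -0.10 to 0.20, adjusted p = 0.583). In B16F0 it went from 5 and 4 to 11 and 11 counts, a ratio of 3.05 (counting interval 1.35 to 7.52) that passed the edgeR test (adjusted p = 0.0171). The call was lost without replicate 1 (adjusted p = 0.0629) or replicate 2 (0.0727) of the control or replicate 2 of SX-682 (0.0956), and when only the B16F0 libraries were fitted. In B16F10 the SX-682 libraries had 1 and 5 counts against 0 and 2. Nkd2 by contrast rose in Melan-A, by 0.55 (SE 0.046, adjusted p = 7.02e-11), and in B16F10, by 0.26 (SE 0.072, adjusted p = 0.00281), and stayed at 0 counts in B16F0.

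Znrf3 fell in B16F10, from 25.4 and 26.2 CPM to 21.04 and 22.1 CPM, by 0.26 (SE 0.060, adjusted p = 0.000544). In B16F0 it was at 17.0 and 16.7 CPM against 15.8 and 16.5 CPM, a change of 0.06 (interval -0.07 to 0.19, adjusted p = 0.455). The B16F10 response minus that of B16F0 was -0.32 (interval -0.50 to -0.14, adjusted p = 0.00546). In Melan-A it was at 27.1 and 25.0 CPM against 29.3 and 28.3 CPM, a fall of 0.15 (adjusted p = 0.0328) that was lost without replicate 1 of the control (adjusted p = 0.166) or replicate 2 of SX-682 (0.356) and under DESeq2 (0.0883). Rnf43 had 13 and 24 counts in treated Melan-A, where the controls had 12 and 16, and 3 counts in each treated B16 library.

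Around the members, 7 lists of other pathway genes held 102 genes, of which 101 were analysed, 5 had no count over 3 in any library and 81 were tested. SX-682 called 13 of the 81 higher and 37 lower in Melan-A, 27 higher and 22 lower in B16F0, and 24 higher and 21 lower in B16F10. Of all genes tested 23.4% were higher and 24.7% lower in Melan-A, 25.1% and 25% for B16F0, and 25.5% and 25.3% for B16F10. These shares are also the background for the SX-682 counts of each list below. The median change of the 81 genes was -0.16 for Melan-A, 0 for B16F0 and 0.01 for B16F10, against 0 for all genes tested. The untreated B16 lines were lower than Melan-A for most of these genes, with 53 lower and 21 higher in B16F0 and 51 lower and 22 higher in B16F10, where 40.6% and 40.8% of all genes tested were lower and 35.3% and 33.4% higher. The medians of the 81 genes were -0.67 and -0.62 (all genes -0.06 and -0.10).

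**Figure D4:**
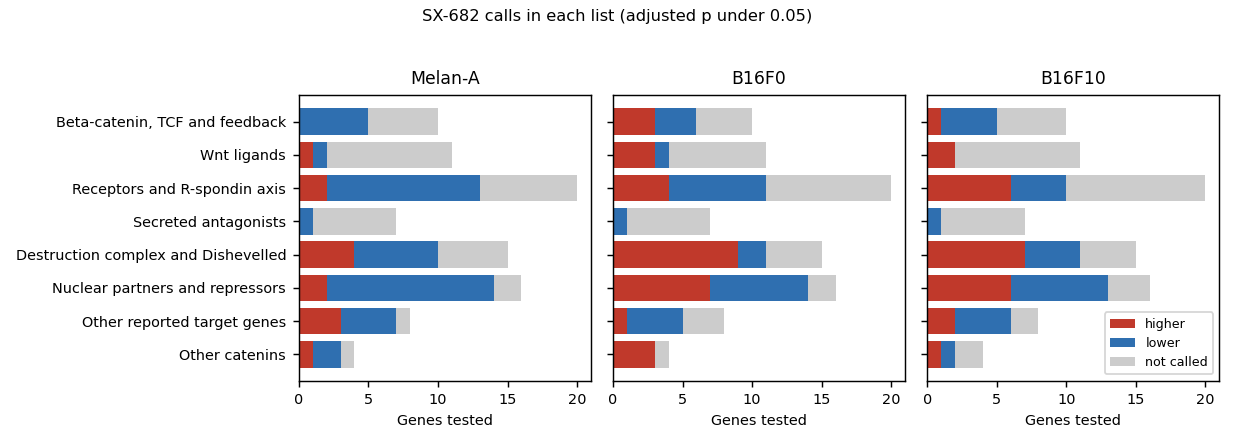
Number of genes tested in each list that were higher, lower or not called with SX-682 in each line (edgeR, adjusted p under 0.05), with the 10 members in the top bar. In Melan-A 12 of 16 nuclear partners and 11 of 20 receptor genes are lower, against 7 of 16 and 7 of 20 in B16F0. In the other lists 6 of 15 destruction complex genes, 4 of 8 other targets and 2 of 4 other catenins are lower in Melan-A. So are 1 of 11 Wnt ligands and 1 of 7 secreted antagonists. Of all genes tested 24.7% are lower in Melan-A and 25% in B16F0.

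Upstream of beta-catenin, 11 of 19 Wnt ligands were tested and SX-682 called 2 of them for Melan-A, 4 for B16F0 and 2 for B16F10. Wnt6, the most abundant ligand, was at 44.1 ± 0.130 CPM (SD, n = 2) in the Melan-A controls and at 7.94 and 7.88 CPM in those of B16F0 and B16F10. It fell by 0.23 in Melan-A (edgeR adjusted p = 0.0007), rose by 0.54 in B16F10 (3.38e-07) and changed by 0.16 in B16F0 (0.0866). Wnt9a rose by 1.11 in B16F0 (adjusted p = 2.26e-08), and Wnt11 was at 839 to 901 counts in the Melan-A controls and at 0 to 6 in every B16 library. Of 20 receptor and R-spondin genes tested, 2 were higher and 11 lower in Melan-A, 4 and 7 in B16F0, and 6 and 4 in B16F10. The Frizzled receptor Fzd7 rose in all 3 lines, by 0.27, 0.54 and 0.23 (adjusted p = 7.7e-08, 1.16e-13 and 2.79e-06). The co-receptor Lrp5 fell by 0.42 in Melan-A (adjusted p = 4.19e-13) and rose by 0.40 in B16F10 (6.29e-11), and Lrp6 fell by 0.14 in Melan-A (2.4e-05). Of 7 secreted antagonists tested, 1 was called in each line, lower each time. Sfrp1, a decoy that binds Wnt proteins, was at 484 ± 14.03 CPM in the Melan-A controls, at 0 counts in all 4 B16F0 libraries and at 13.3 ± 0.333 CPM in the B16F10 controls, and fell by 0.81 in Melan-A (adjusted p = 5.23e-19) and 0.37 in B16F10 (2.34e-06). Dkk3 and Frzb had the opposite distribution, at 0.197 and 0.378 CPM in the Melan-A controls against 55.4 and 26.7 CPM in B16F0.

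Among the other genes of the destruction complex and Dishevelled, 4 were higher and 6 lower of 15 in Melan-A, 9 and 2 in B16F0, and 7 and 4 in B16F10. Csnk1a1, the kinase that primes beta-catenin, rose in all 3 lines, by 0.22, 0.27 and 0.45 (edgeR adjusted p = 1.18e-09, 3.71e-11 and 1.44e-16). A relation to the fall of Ctnnb1 RNA was not tested. Tnks2, a tankyrase that marks Axin for removal, changed by -0.08, 0.09 and -0.02, and Csnk1d by -0.09, 0.09 and 0.01. Of 16 nuclear partners and repressors 2 were higher and 12 lower in Melan-A, 7 and 7 in B16F0, and 6 and 7 in B16F10. Tle5 and the co-repressor Ctbp1 fell in all 3 lines. The falls were 0.41, 0.37 and 0.12 for Tle5 (edgeR adjusted p = 1.99e-15, 1.54e-14 and 4.19e-05) and 0.39, 0.30 and 0.22 for Ctbp1 (1.71e-13, 4.07e-11 and 1.45e-08). Chd8, which represses beta-catenin targets, fell by 0.20 in Melan-A (adjusted p = 6.68e-06) and rose by 0.14 in B16F0 (0.000498).

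Of 8 further genes described elsewhere as Wnt targets, 3 were higher and 4 lower in Melan-A, 1 and 4 in B16F0, and 2 and 4 in B16F10. Ccnd1, the G1 cyclin, fell in all 3 lines, by 0.56, 0.79 and 1.11 (edgeR adjusted p = 1.18e-18, 1.46e-21 and 9.15e-26). Its estimates had the same order of lines as those of Ctnnb1, while those of Mitf did not, and no relation was tested. Mitf, the melanocyte master regulator and one of the lineage markers above, was at 102 ± 1.64 CPM in the Melan-A controls, 367 ± 6.08 CPM in B16F0 and 420 CPM in both B16F10 libraries, and fell by 0.37, 2.11 and 1.14 (adjusted p = 1.98e-11, 2.16e-29 and 6.19e-24). Cd44 rose by 0.27 in Melan-A (adjusted p = 9.67e-11) and changed by -0.02 and -0.03 in the B16 lines. The changes of Axin2 in the B16 lines, -0.28 and 0.12, were smaller in size than those of Ccnd1 and Mitf. Of 4 other catenins tested, Ctnna1, the link to actin, fell by 0.20 in Melan-A (adjusted p = 3.78e-09) and rose by 0.11 in B16F0 (6.24e-05). Ctnnd1 fell by 0.31 in Melan-A (8.43e-07) and rose by 0.24 in B16F0 (9.21e-05), and fell by 0.18 in B16F10 (0.00153, and 0.0521 without replicate 2 of the control). Jup, the close relative of beta-catenin, rose in all 3 lines, by 0.34, 0.31 and 1.27 (0.000204, 0.00367 and 2.38e-07). Its controls were at 27.3, 10.9 and 1.14 CPM. Without replicate 1 of the B16F0 control the B16F0 rise was 0.20 and was not called.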

How the data were processed

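RNA from cultures of 3 mouse lines was extracted with a column kit and sequenced on Illumina libraries, 2 per group. The authors deposited raw counts per gene for 12 libraries. The submitters' processing notes name mm10, cutadapt, STAR and DESeq2 with no versions, and the counting program and its use of strand are not given in the sources used here. All columns were matched to libraries by name, and groups and replicate numbers come from the sample titles. The members and lists were chosen with earlier results of these data known.

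Counts were tested in R 4.3.3 with edgeR 4.0.16 (glmQLFit and glmQLFTest) in 1 fit of the 12 libraries by group. Scaling was by TMM, filterByExpr left 18338 genes, the prior count was at its default, and p-values were adjusted by Benjamini-Hochberg over all of these genes and called at 0.05. Standard errors came from the F statistic, with 6 residual and 21.9 prior degrees of freedom. Below 15 counts, ratios of summed counts with exact binomial 95% intervals are given, and these intervals and the floor of 3 counts (0.0330 to 0.0623 CPM) cover counting error only. Gene lengths are those of the table, which equal the GENCODE M21 exon length for 98.7% of matched genes. Tcf7 and Tcf7l2 are not among these and are longer in the table. Genes named were all members, the 3 of highest mean CPM in each list, and the 3 most like Ctnnb1 and Axin2. Nkd2 and the genes opposite members were added after values were seen. The single markers Tyr, Cd68, Ptprc, Cd3e, Krt1 and Epcam were named from the marker lists outside this rule. The script was tested on simulated data. Libraries of a group differed by more than sampling noise (chi-square per gene 2.83 to 5.16). Deviations of treated and control libraries that carry the same number were not related (correlations -0.10, -0.04 and 0.02), so no block was used. Alternatives were DESeq2 1.42.0, RLE, upper quartile and library-total scaling, other filters, prior count and threshold, single lines, the block, and each library left out. Promoter sequences are from RefSeq on GRCm38.p6 and coding sequences from GENCODE M21.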

Additional observations from a re-analysis of the deposited data

Results flagged for a closer look

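The SX-682 response differed among the 3 lines for 6 members by edgeR's F-test on the difference itself. The same test called 47.4% of all genes tested, so the count of members is near the background. These 6 members are listed as values with no explanation. The log2 change of Tcf7l2 ranged over 0.884 between lines (adjusted p = 3.92e-06), from -0.48 in Melan-A to 0.40 in B16F0. For Tcf7l1 the range was 0.685 (adjusted p = 1.98e-11), again with the fall in Melan-A and no fall in the B16 lines. Apc fell in every line, with a range of 0.312 (adjusted p = 2.45e-06), and so did Ctnnb1, with a range of 0.289 (adjusted p = 1.53e-09) and the deepest fall in B16F10. For Znrf3 the range was 0.322 (adjusted p = 0.0104), between a fall in B16F10 and a change of 0.06 in B16F0. The range of 1.53 for Nkd1 (adjusted p = 0.037) rests on 0 to 11 counts in the B16 libraries. Groups of 2 libraries were too small for a search for outlying libraries.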

How the results depend on the processing

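Depth limited Rnf43 in every line, Lef1 and Nkd1 in the B16 lines and Axin2 in Melan-A, so that fitted changes there rest on few counts. Counts over all genes stayed within 1.5 times of the reported ones under all alternatives run. The number of members called with SX-682 in B16F0 (6) was 3 to 6 over the 12 fits that each left out a library. With at least 10 counts in every library it was 5 for untreated B16F0 and 4 for untreated B16F10 against Melan-A (8 each). That filter removed Lef1, Axin2 and Nkd1, and for B16F10 the call of Ctnnb1 was also lost (0.028, adjusted p = 0.168). For the response difference of B16F10 from B16F0 the count was 5 (3) with only the lines compared in the fit.

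Directions turned for untreated Ctnnb1 with library totals (-0.0095, -0.092 and -0.083 for B16F0 and B16F10 against Melan-A and B16F10 against B16F0), with upper quartile scaling (-0.043) and with at least 10 counts in every library (-0.013) for the last. With SX-682 in B16F10, Lrp6 (0.015), Tnks2 (0.019) and Cd44 (0.0049) turned with upper quartile scaling, and Tnks2 with library totals (0.00028). Leaving out 1 library at a time turned 9 directions, none of them called: Tcf7 and Znrf3 for B16 minus Melan-A (ranges -0.020 to 0.23 and -0.010 to 0.11), Tcf7l2 for B16F10 minus B16F0 (-0.23 to 0.055), Axin2, Tnks2 and Csnk1d with SX-682 in B16F10 (-0.0042 to 0.26, -0.033 to 0.0031 and -0.0022 to 0.024), Dkk3 and Frzb in Melan-A (-0.43 to 0.82 and -0.82 to 0.10) and Cd44 in B16F0 (-0.064 to 0.023). The causes were not tested.

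The replicate block lost 1 SX-682 call of a member, Axin2 in B16F0 (adjusted p = 0.0523), and moved no count of members called by more than 1. With the numbers crossed in Melan-A, an alternative chosen after seeing the data, 5, 6 and 4 members were called with SX-682 in Melan-A, B16F0 and B16F10.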
